A study of Mus musculus with 6 samples.

Results

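Mitosis genes were examined in mouse Müllerian duct mesenchyme. This tissue surrounds an epithelial tube that gives rise to oviduct, uterus and upper vagina in females and is lost in males. They are 40 genes for mitotic kinases, cyclins, kinetochore, spindle and cytokinesis proteins, chosen by name for their role and found by symbol among the 37991 gene identifiers of the count files. RNA was sequenced from 3 male and 3 female libraries of embryonic day 14.5. All embryos carried Amhr2Cre/+ and R26R YFP/+ on a C57BL/6J x 129/SvEv mixed background, so the female libraries are the reference for the male ones and not an untreated control. YFP-positive cells were sorted, YFP marking cells with past or present Cre activity from the Amhr2 locus, which gonadal support cells also use. Each library was made from a pool of 2 to 7 embryos, and the labels call the replicates biological. The comparison asked which genes differ between male mesenchyme, which receives anti-Müllerian hormone from the testis, and female mesenchyme.

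Mitosis begins when CDK1 with cyclin B is activated, after which chromosomes condense, microtubules of the spindle attach to them at kinetochores, and a checkpoint holds the cell until all are attached. The anaphase-promoting complex with CDC20 then marks cyclin B and securin for destruction, separase cuts the cohesin that holds sister chromatids, and the central spindle directs the cell to divide. Most of these genes are transcribed mainly in late S phase to mitosis, so their RNA in a tissue is widely used as a readout of how many cells are cycling. In bulk samples fewer cycling cells and less of these RNAs per cycling cell cannot be told apart.

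Promoters of such genes often carry a CCAAT box, bound by NF-Y, and a cell cycle genes homology region (CHR element), bound by the MuvB proteins together with MYBL2 and FOXM1 or with repressive pocket proteins. RefSeq promoter windows of the build GRCm38.p6, from 250 bases before to 50 after the start, were matched by symbol for 33 of the 40 genes. The searches, on both strands, were for CCAAT, for the CHR letters TTTGAA or TTCGAA (the latter reads the same on both strands), and for the E2F cores TTCCCGC or TTGGCGC, the last of which can overlap a CCAAT box on the other strand. A CCAAT match lay in 26 of the 33 windows (78.8%) and in 37.4% of all 32817 windows. A CHR match also lay in 26 of the 33 (78.8%), and in 19.2% of all windows. Both were found in 23 of the 33 (69.7%), against 7.51% of all windows. An E2F core was found in 4 (12.1%), against 6.8% of all windows. Within 50 bases on either side of the start, a distance chosen after the positions were seen, 24 of the 33 windows held a CHR match (72.7%), against 5.31% of all windows. A match is a description of letters, not of binding.

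The 200 bases before the start are shown for 4 genes described further on, those with the smallest p among the genes named by rule that had both motifs in the window. Capitals mark CCAAT and CHR matches, and each is read 5′ to 3′ on the gene's strand.
Bub1b, chr2:118598011-118598210, plus strand: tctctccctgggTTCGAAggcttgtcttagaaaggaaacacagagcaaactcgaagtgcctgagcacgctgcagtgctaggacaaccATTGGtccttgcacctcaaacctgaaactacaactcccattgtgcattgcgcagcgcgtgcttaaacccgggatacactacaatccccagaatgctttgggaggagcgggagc
Racgap1, chr15:99651657-99651856, minus strand: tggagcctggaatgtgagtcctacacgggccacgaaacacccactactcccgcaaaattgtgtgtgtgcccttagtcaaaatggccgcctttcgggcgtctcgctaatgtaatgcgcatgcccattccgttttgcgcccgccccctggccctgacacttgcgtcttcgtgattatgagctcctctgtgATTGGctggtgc
Espl1, chr15:102296093-102296292, plus strand: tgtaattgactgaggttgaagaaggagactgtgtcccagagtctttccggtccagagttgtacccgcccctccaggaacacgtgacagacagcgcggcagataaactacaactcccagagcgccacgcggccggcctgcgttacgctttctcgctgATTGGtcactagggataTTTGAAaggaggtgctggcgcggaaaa
Spc25, chr2:69206214-69206413, minus strand: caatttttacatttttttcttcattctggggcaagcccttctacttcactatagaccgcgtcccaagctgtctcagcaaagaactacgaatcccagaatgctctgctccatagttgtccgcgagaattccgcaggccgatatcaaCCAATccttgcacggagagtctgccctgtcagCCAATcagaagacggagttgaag
Espl1 has both within the stretch shown, with CCAAT at positions −44 to −40 and a CHR match at −27 to −22. In Racgap1 and Spc25 the CHR match begins 6 and 25 bases after the start, beyond the stretch shown. Bub1b has 1 CHR match far upstream, at −188 to −183, and another 41 bases after the start.

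**Figure D1:**
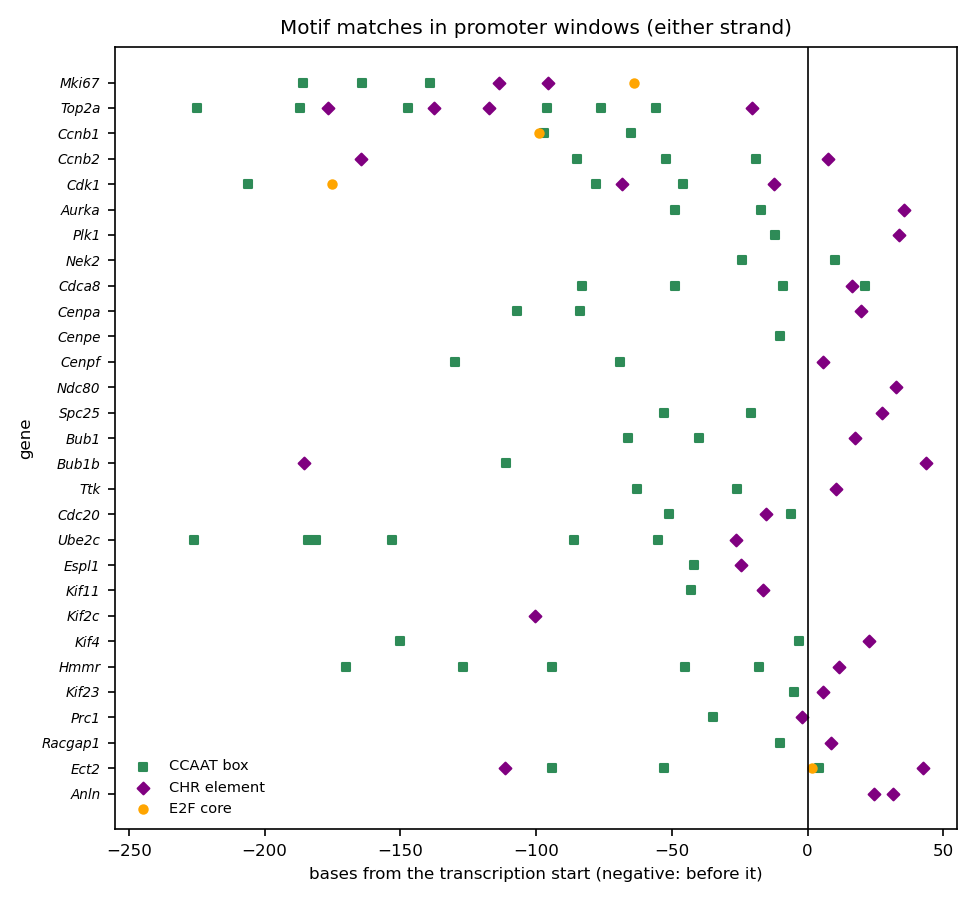
Motif matches in the promoter windows of the 29 mitosis genes with at least 1 match, by distance in bases from the transcription start (x axis) and gene (y axis); squares are CCAAT boxes, diamonds CHR elements and circles E2F cores. CCAAT boxes lie mostly before the start and CHR elements close to it, and 4 further genes with a window had none of the motifs.

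The libraries held 22511872 to 24749859 counts in genes, and a mitosis gene had between 72 and 16032 counts in a library. All 40 passed the filter on low counts that left 15227 genes. Values are CPM, counts scaled to a common library total with edgeR's TMM factors, and fold changes are log2 male over female from edgeR's quasi-likelihood test over all genes tested, with a threshold of 0.05 on the Benjamini-Hochberg adjusted p. Libraries stood apart within each sex: counts outside annotated genes made up 17.5% and 18.2% in the replicate 1 libraries of female and male, and 3.53% to 8.65% in the other 4. The first principal component, with 65.6% of the variance, placed both replicate 1 libraries at one end and both replicate 2 libraries at the other. Each of 8 mesenchyme markers of the duct reached 1 CPM in at least 1 library, though Lhx9 stood at 0.198 CPM in male replicate 2. In every male library 3 of the 8 were lower and 1 higher, against 7.27% and 6.47% of all genes tested. These were Hoxa10, Hoxa11 and Osr1 (log2 fold changes −1.16, −1.16 and −2.16) and Pdgfra (1.07), none past the threshold. Amhr2 had 530.3 ± 233.7 CPM (SD, n = 3) in the female libraries and 338.8 ± 158.4 CPM (SD, n = 3) in the male ones. With a correction for transcript GC content and length given further on, Amhr2 (−0.97, adjusted p = 0.0256 in edgeR), Hoxa10, Hoxa11 and Osr1 were lower and Pdgfra higher past the threshold. Wt1, Lhx9 and Tcf21 were not called. Of all genes that fit called 2.92% lower and 3.02% higher.

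None of the 40 mitosis genes passed the threshold, while all 40 had a negative log2 fold change, with a median of −0.71. The lowest was Pbk at −1.11 and the highest Cdc20 at −0.26. Among all genes tested 50.5% had a negative value and the median was −0.01. The adjusted p-values of the 40 ran from 0.327 to 0.99997 (edgeR), against a background of 59 genes, 0.387% of those tested, called lower in male and 0.841% called higher. At an unadjusted p under 0.05 edgeR had 5 of the 40 lower, namely Nek2, Pbk, Kif20a, Ccna2 and Bub1b, which is 12.5% against 4.51% of all genes. DESeq2 and limma-voom also called none of the 40 (of all genes they called 2.15% and 0.519% lower and 2.92% and 1.06% higher). The direction of a cell cycle list in these libraries was known when the 40 were chosen, so their common sign is not independent evidence.

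In 15 of the 40 genes every male library lay below every female library (37.5%), which held for 7.27% of all genes tested. In the remaining 25 the sexes overlapped, and in none did every male library lie above, which held for 6.47% of all genes. Replicate 1 libraries were compared with each other because they share the high share of counts outside genes. Between them male was lower for all 40, with a median difference of −0.66 in log2 CPM, against 46.9% of all genes and a median of 0.03. In the other 4 libraries all 40 again had a negative log2 fold change, with a median of −0.82, and none passed. There 54.0% of all genes were negative, with a median of −0.06, and 0.863% were called lower and 1.5% higher. Across all 9 pairings of a male with a female library the median difference over the 40 genes ran from −1.69 to −0.22. Some pairings split the list. Male replicate 1 was lower than female replicate 2 for 22 of the 40, against 49.8% of all genes. It was lower than female replicate 3 for 25, against 48.6%. Male replicate 3 was lower than female replicate 2 for 26, against 48.4%. In the other pairings male was lower for 33 to 40 of the genes.

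**Figure D2:**
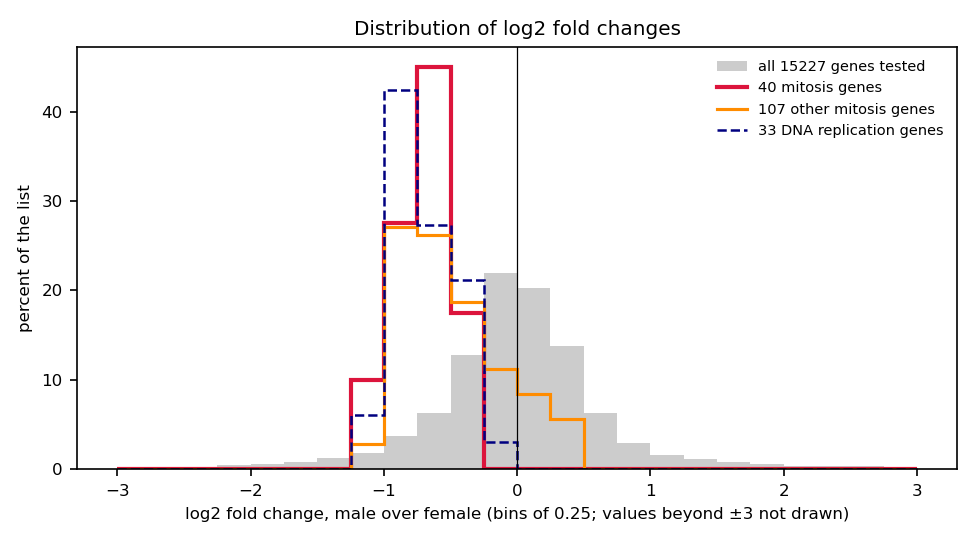
Distribution of log2 fold changes, male over female (x axis, bins of 0.25), as the percent of each list (y axis), for all 15227 genes tested (grey), the 40 mitosis genes, 107 other mitosis genes and 33 DNA replication genes. The mitosis genes lie between −1.11 and −0.26, while the whole set centres on −0.01.

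**Figure D3:**
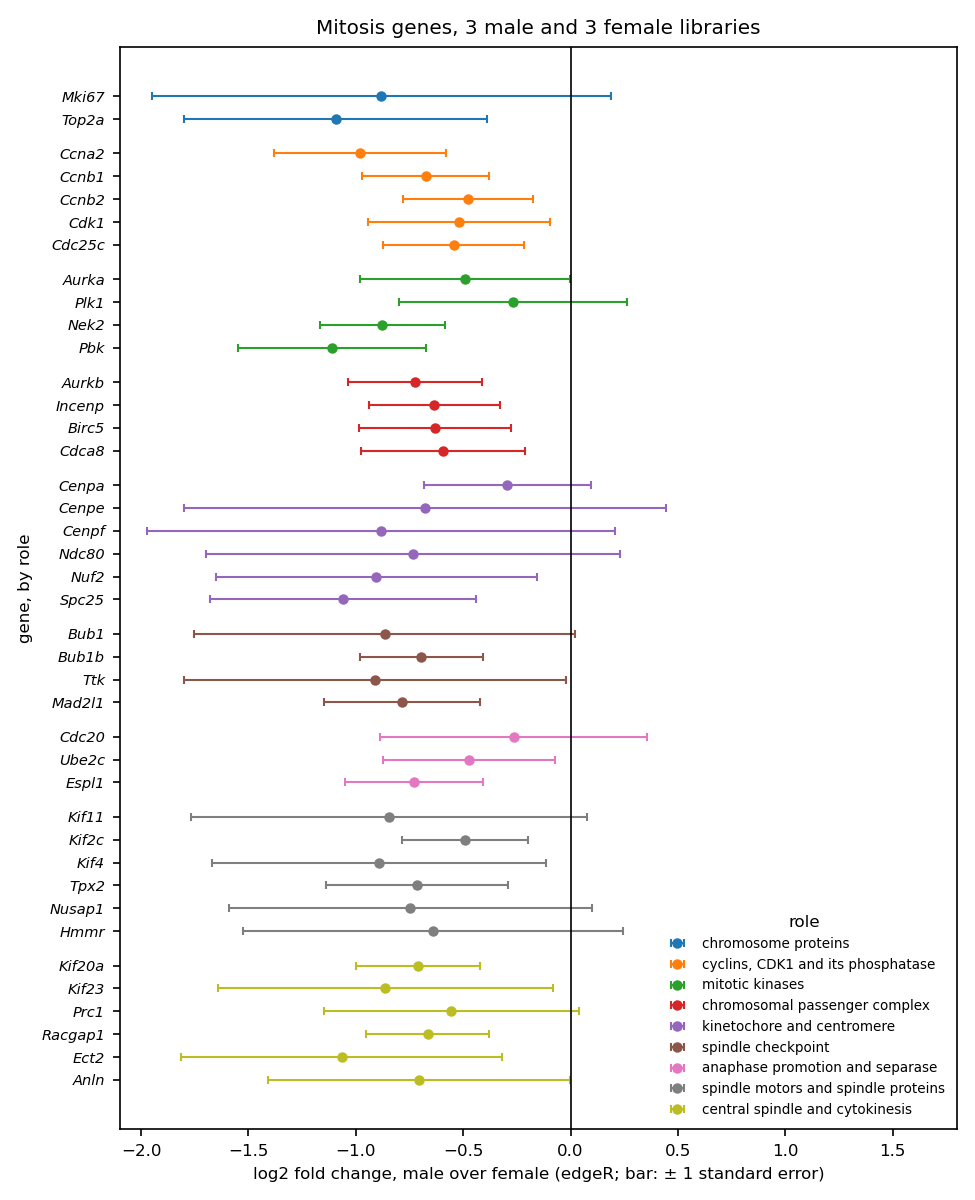
Log2 fold change of each of the 40 mitosis genes, male over female (x axis; points are edgeR estimates, bars 1 standard error either side), grouped by role (y axis). All points lie left of 0, and the bars differ in width from 0.29 for Racgap1 to 1.12 for Cenpe.

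Mki67 and Top2a coat and untangle chromosomes. Mki67, whose protein is the Ki-67 proliferation marker, stood at 542.6, 46.5 and 138.7 CPM in female replicates 1 to 3 and at 294.2, 44.7 and 56.2 CPM in male replicates 1 to 3. The replicate 1 library was the highest of each sex by far, and the sexes overlapped. Its log2 fold change was −0.88 (SE 1.07, adjusted p = 0.99997 in edgeR), and it turned to 0.51 (SE 0.96) without female replicate 1. Top2a, DNA topoisomerase II alpha, stood at 589.0, 146.6 and 386.0 CPM in female and at 305.1, 67.3 and 152.9 CPM in male libraries. Replicate 1 was again the highest of each sex, and male replicates 1 and 3 lay above female replicate 2. Top2a had a log2 fold change of −1.09 (SE 0.70, adjusted p = 0.936 in edgeR).

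Among the cyclins, Ccna2, Ccnb1 and Ccnb2 had no overlap between the sexes. Ccna2 encodes cyclin A2, which acts in S phase and at mitotic entry, and stood at 127.2, 83.4 and 119.6 CPM in female and 74.0, 34.0 and 59.3 CPM in male libraries. All male values lay below the female ones, and replicate 2 was the lowest of each sex. Ccna2 was 1.97-fold higher in female by mean CPM, with a log2 fold change of −0.98 (SE 0.40, adjusted p = 0.516 in edgeR). Ccnb1, cyclin B1, stood at 71.6, 59.3 and 70.0 CPM in female and 43.9, 35.6 and 46.4 CPM in male libraries. The libraries of each sex lay close together and did not overlap, with a log2 fold change of −0.67 (SE 0.30, adjusted p = 0.578 in edgeR). Ccnb2, cyclin B2, stood at 76.7, 96.0 and 88.9 CPM in female and 58.1, 55.6 and 74.2 CPM in male libraries, and its log2 fold change was −0.48 (SE 0.30). The gap between the sexes was narrow here, between male replicate 3 and female replicate 1. Cdk1, the kinase that drives entry into mitosis, stood at 128.2, 256.3 and 199.99 CPM in female and 85.1, 146.8 and 176.3 CPM in male libraries. In both sexes replicate 1 was the lowest, the reverse of Mki67, and the sexes overlapped (log2 fold change −0.52, SE 0.42). Cdc25c, a phosphatase that activates CDK1, ran from 20.9 to 26.5 CPM in female and from 12.4 to 19.3 CPM in male libraries, without overlap (log2 fold change −0.54, SE 0.33).

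The mitotic kinases differed in how evenly their libraries lay. Nek2, a kinase of centrosome separation, stood at 33.7, 32.7 and 33.7 CPM in female and 20.6, 17.0 and 17.0 CPM in male libraries. The female libraries were nearly level, and every male library lay well below them. Nek2 had the smallest p of the 40, with a log2 fold change of −0.88 (SE 0.29, adjusted p = 0.327 in edgeR). Plk1, polo-like kinase 1, which acts from mitotic entry to cytokinesis, stood at 48.2, 109.0 and 84.7 CPM in female and 29.1, 87.4 and 84.4 CPM in male libraries. The sexes overlapped broadly, with replicate 1 the lowest of each. Its log2 fold change was −0.27 (SE 0.53), and it turned to 0.02 without female replicate 2 and to 0.09 without male replicate 1. Aurka, the centrosomal Aurora kinase, had a log2 fold change of −0.49 (SE 0.49), with overlap. Pbk, a mitotic kinase also called TOPK, ran from 35.6 to 59.5 CPM in female and from 12.01 to 30.7 CPM in male libraries, and had the lowest log2 fold change of the 40, −1.11 (SE 0.44, adjusted p = 0.493 in edgeR).

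The chromosomal passenger complex, which corrects wrong attachments and later directs cytokinesis, is made of Aurora B, INCENP, survivin and borealin. Aurkb stood at 63.7, 77.8 and 65.0 CPM in female and 34.7, 39.1 and 51.2 CPM in male libraries. The sexes did not overlap, and the log2 fold change was −0.72 (SE 0.31, adjusted p = 0.563 in edgeR). Birc5, the survivin gene, stood at 91.7, 159.1 and 97.6 CPM in female and 63.2, 83.4 and 78.2 CPM in male libraries, with replicate 2 the highest of each sex and no overlap. Its log2 fold change was −0.63 (SE 0.35). Incenp, the scaffold, had −0.63 (SE 0.31) without overlap, and Cdca8, the borealin gene, −0.60 (SE 0.38) with overlap. In Birc5 and Incenp the sexes did overlap after a correction for transcript GC content and length given further on. The 4 subunits thus lay within a narrow range, from −0.72 to −0.60.

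In all 6 kinetochore and centromere genes the sexes overlapped, and their pooled within-sex SD ran from 0.45 (Cenpa) to 1.75 (Cenpe) in log2 CPM. Cenpa, the histone H3 variant that marks centromeres, stood at 106.2, 185.8 and 130.1 CPM in female and 75.2, 140.0 and 128.8 CPM in male libraries. Replicate 1 was the lowest of each sex, and the log2 fold change was −0.29 (SE 0.39). Spc25, a subunit of the NDC80 complex that binds microtubules, stood at 78.4, 36.0 and 45.4 CPM in female and 45.9, 9.74 and 20.9 CPM in male libraries. Here replicate 1 was the highest of each sex, and male replicate 1 lay above female replicates 2 and 3 (log2 fold change −1.06, SE 0.62, adjusted p = 0.861 in edgeR). For Nuf2 and Ndc80, of the same complex, the log2 fold change was −0.90 (SE 0.75) and −0.73 (SE 0.96). Cenpe, a kinetochore motor, ran from 9.88 to 134.6 CPM in female and from 12.1 to 86.7 CPM in male libraries, and Cenpf from 14.6 to 191.5 and from 17.0 to 104.9 CPM. The sign of 3 of them turned when female replicate 1 was left out: Cenpe, Cenpf and Ndc80 then stood at 0.75, 0.50 and 0.26.

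Of the spindle checkpoint genes, Bub1b, which encodes the CDC20 inhibitor BUBR1, stood at 114.9, 123.9 and 134.7 CPM in female and 72.5, 76.6 and 81.5 CPM in male libraries. The libraries of each sex were close and the sexes were well apart, with a log2 fold change of −0.70 (SE 0.29, adjusted p = 0.522 in edgeR). Mad2l1, the CDC20 inhibitor MAD2, ran from 55.6 to 69.5 CPM in female and from 23.4 to 47.7 CPM in male libraries, also without overlap (log2 fold change −0.79, SE 0.36). In Mad2l1 the sexes did overlap after a correction for transcript GC content and length given further on. The checkpoint kinases Bub1 and Ttk had −0.87 (SE 0.89) and −0.91 (SE 0.89) with broad overlap. Bub1 stood at 0.01 without female replicate 1.

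For exit from mitosis, Cdc20, the activator of the anaphase-promoting complex, stood at 59.7, 198.9 and 121.5 CPM in female and 41.2, 142.9 and 132.5 CPM in male libraries. Replicate 1 was the lowest of each sex and the sexes overlapped. Its log2 fold change of −0.26 (SE 0.62) turned to 0.23 without female replicate 2 and to 0.12 without male replicate 1. Espl1, the separase gene, stood at 78.4, 89.9 and 111.0 CPM in female and 45.2, 61.7 and 61.6 CPM in male libraries. Every male library lay below the female ones, with a log2 fold change of −0.73 (SE 0.32, adjusted p = 0.584 in edgeR). Ube2c, the ubiquitin-conjugating enzyme that works with the complex, had −0.47 (SE 0.40) with overlap.

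Among 6 spindle motors and spindle proteins, Kif2c, a microtubule depolymerase, was the 1 without overlap, at 65.1 to 77.0 CPM in female and 45.7 to 56.8 CPM in male libraries (log2 fold change −0.49, SE 0.29). Tpx2, a spindle assembly factor that activates Aurora A, stood at 147.0, 85.3 and 109.9 CPM in female and 97.3, 41.7 and 69.3 CPM in male libraries. Male replicate 1 lay above female replicate 2, and the log2 fold change was −0.72 (SE 0.42, adjusted p = 0.872 in edgeR). Kif11, the motor that separates the spindle poles, Nusap1, which bundles spindle microtubules, and Hmmr, a spindle and hyaluronan-binding protein, had −0.84, −0.75 and −0.64, with standard errors of 0.92, 0.85 and 0.88. Hmmr turned to 0.20 without female replicate 1. Kif4, a chromosome-bound motor encoded on the X chromosome, had −0.89 (SE 0.78).

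Cytokinesis genes included Kif20a and Racgap1, whose libraries lay close together within each sex. Kif20a, a central spindle motor, stood at 79.1, 94.7 and 95.7 CPM in female and 52.3, 53.9 and 58.4 CPM in male libraries. The sexes were well apart, with a log2 fold change of −0.71 (SE 0.29, adjusted p = 0.507 in edgeR). Racgap1, which with Kif23 forms the centralspindlin complex, stood at 119.2, 129.0 and 115.5 CPM in female and 76.6, 70.6 and 82.2 CPM in male libraries. It had the smallest spread of the 40, a pooled within-sex SD of 0.097 in log2 CPM, close to the 0.101 of Bub1b. That spread was wider after a correction for transcript GC content and length given further on. Racgap1 had a log2 fold change of −0.67 (SE 0.29, adjusted p = 0.56 in edgeR). Its partner Kif23 had a wider spread, 21.3 to 102.0 CPM in female and 11.5 to 63.5 CPM in male libraries (log2 fold change −0.86, SE 0.78). Prc1, a microtubule bundler of the midzone, Ect2, which activates RhoA at the cleavage furrow, and Anln, the furrow scaffold anillin, had −0.56, −1.07 and −0.71, all with overlap.

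The 40 genes differed widely in their spread between libraries of the same sex. The pooled within-sex SD ran from 0.10 for Racgap1 to 1.75 for Cenpe in log2 CPM, and its median was 0.61, against 0.65 over all genes. Over the 40 members this SD had a Pearson r of −0.52 with the GC content of each gene's longest GENCODE transcript. With the length of that transcript r was 0.46. In the 20 members with the lower GC content, 40.1% to 46.3%, replicate 1 lay above replicate 2 in all 20 in female and in all 20 in male, with medians of 2.05 and 2.42 on the log2 scale. In the 20 with the higher GC content, 46.3% to 56.1%, it did so in 5 in female and 7 in male, with medians of −0.27 and −0.13. Over the 40 members, all measured in the same libraries, GC content and the replicate 1 minus replicate 2 difference had a Pearson r of −0.70 (Spearman rho −0.74) in female and −0.79 (rho −0.79) in male. Transcript length and that difference had a Pearson r of 0.56 in female and 0.41 in male. Summed CPM of the lower-GC members stood at 2356, 682.5 and 1350 in female and 1409, 330.7 and 637.5 in male libraries, so that replicate 1 was the highest of each sex and the sexes overlapped. Summed CPM of the higher-GC members stood at 2094, 2212 and 2011 in female and 1309, 1388 and 1520 in male libraries, which did not overlap.

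**Figure D4:**
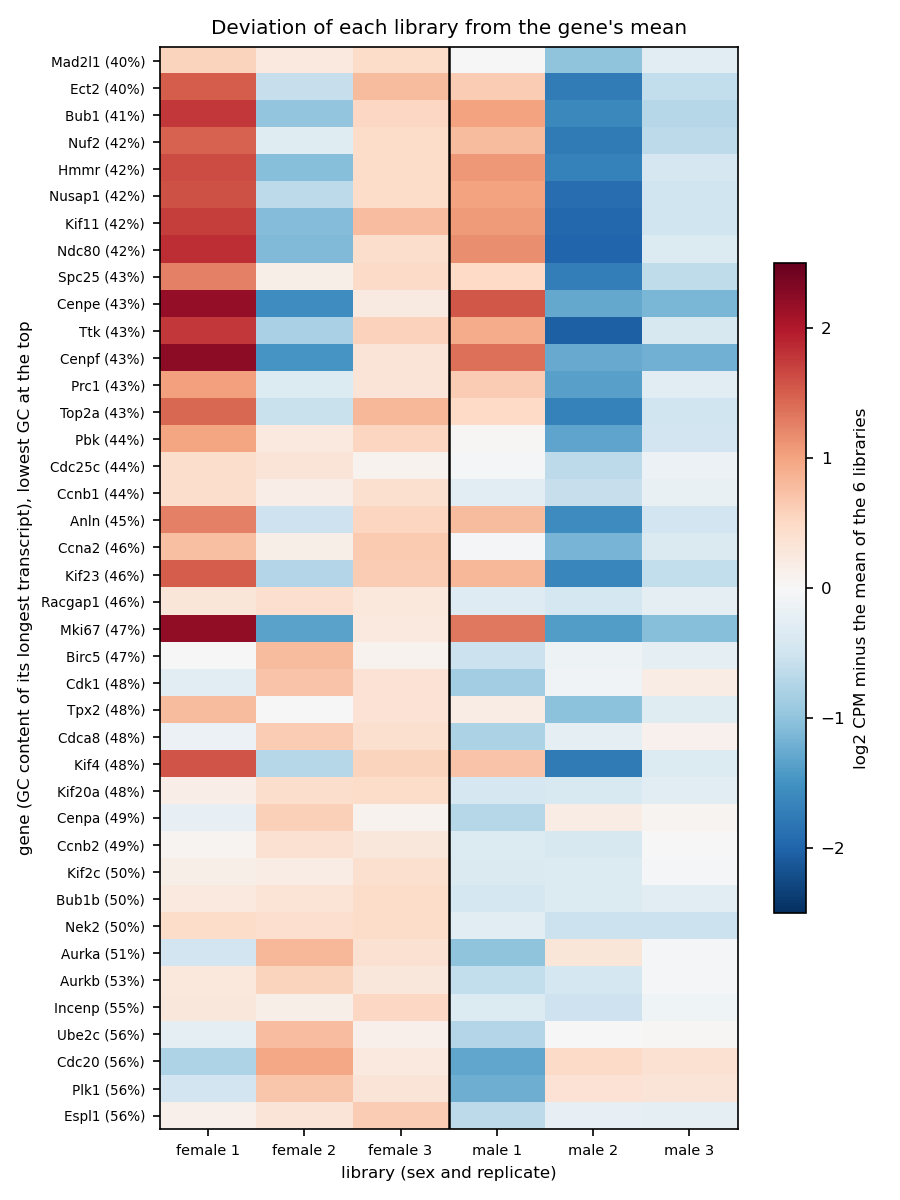
Deviation of each library (columns, 3 female then 3 male) from the gene's mean over the 6 libraries, in log2 CPM, for the 40 mitosis genes (rows, lowest transcript GC content at the top). The upper 20 rows are all higher in replicate 1 than in replicate 2 of the same sex, while the lower 20 rows are mixed, with 5 such rows in female and 7 in male.

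Median log2 fold changes were −0.85 in the lower-GC and −0.63 in the higher-GC members, and 5 and 10 of them had no overlap between the sexes. GC content and the log2 fold change of the 40 had a Pearson r of 0.59, so lower GC went with more negative values. A correction for transcript GC content and length, fitted over all genes, brought the median within-sex SD of the 40 from 0.61 to 0.39. That of all genes went from 0.65 to 0.38. The SD did not fall in every member. It rose in Racgap1 (0.10 to 0.46), Mad2l1 (0.39 to 0.95), Incenp (0.20 to 0.50) and Birc5 (0.34 to 0.52), among others. In Racgap1, Mad2l1 and Birc5 female replicate 1 then lay below male replicate 2, so the sexes overlapped. They also overlapped in Incenp, where female replicate 2 lay below male replicate 1. With the correction all 40 log2 fold changes were still negative, with a median of −0.64. Pbk (−1.13, SE 0.19, adjusted p = 0.0176 in edgeR) and Ccna2 (−0.92, SE 0.20, adjusted p = 0.0464) were lower in male past the threshold. That is 2 of 40, where 2.92% of all genes were called lower and 3.02% higher, and none of the 40 was higher. When a term for counts outside genes was added to the model, an alternative chosen after the data were seen, 15 of the 40 were lower past the threshold and none higher, where 7.3% of all genes were called lower and 7.24% higher.

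**Figure D5:**
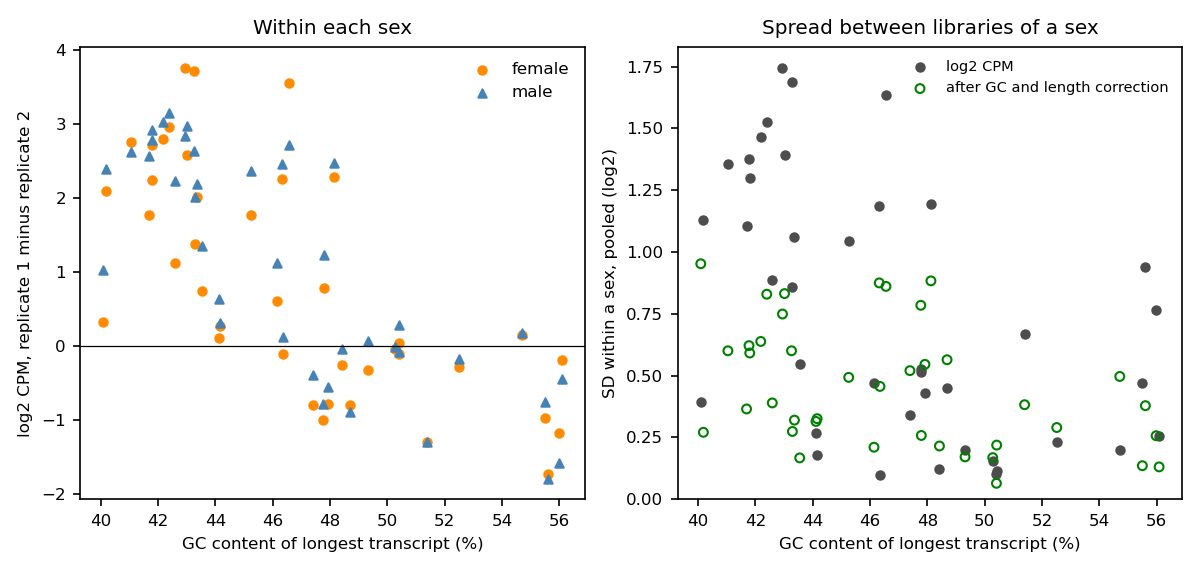
Left, replicate 1 minus replicate 2 in log2 CPM (y axis) against transcript GC content in percent (x axis) for the 40 mitosis genes, female circles and male triangles. Right, pooled within-sex SD in log2 CPM before (filled) and after (open) the GC and length correction. The median goes from 0.61 to 0.39, while the SD of some genes rises.

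Compared per length of the longest transcript, the highest level in female libraries was that of Top2a, at 71.6 CPM per kb, followed by Cdc20 at 70.7 and Ccnb2 at 56.9. In male libraries Cdc20 came first at 58.8 CPM per kb, then Ccnb2 at 40.9, Ube2c at 35.6 and Top2a at 33.5. In female libraries the spread of Top2a and of Cdc20 is larger than the distance between them. The lowest were Ndc80, Kif4 and Cenpe in female, at 7.25, 7.28 and 7.54 CPM per kb, which are not separated either. In male libraries Kif4 was lowest at 3.92 CPM per kb, with Cenpf at 4.18 and Ndc80 at 4.36 not separated from it.

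A further 107 genes of mitosis, listed by role, had a median log2 fold change of −0.55, with 92 negative and 15 positive. None passed the threshold in edgeR, DESeq2 or limma-voom. At an unadjusted p under 0.05 edgeR had 7, all lower, which is 6.54%, not far from the 4.51% of all genes. With the GC and length correction 1 of the 107, Cenpm, was lower (adjusted p = 0.0369 in edgeR), where 2.92% of all genes were called lower. The median depended on single libraries and was −0.18 without female replicate 1 and −0.92 without male replicate 1. Kinetochore and centromere genes outside the 40 were negative in 29 of 31, with a median of −0.74, and Nsl1, a subunit of the MIS12 complex, had the smallest p of the 107. Nsl1 stood at 36.7, 47.8 and 41.2 CPM in female and 19.9, 21.3 and 23.1 CPM in male libraries, without overlap (log2 fold change −0.97, SE 0.30, adjusted p = 0.265 in edgeR). Other spindle motors and spindle proteins were negative in 23 of 23, with a median of −0.66, and condensin and cohesin genes in 15 of 16, with −0.56. Genes of the anaphase-promoting complex and its cofactors, most of which encode core subunits used beyond mitosis, were negative in 7 of 16, with a median of 0.03. The difference between these groups was not tested.

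Of 22 regulators of mitosis gene transcription 18 were negative and the median was −0.49. None passed in edgeR, and 1 was lower at an unadjusted p under 0.05, which is 4.55% against 4.51% of all genes. DESeq2 called 1, E2f2, where it called 2.15% of all genes lower. E2f2, an activating E2F factor, had the smallest p. It stood at 18.8, 32.7 and 29.1 CPM in female and 6.92, 12.5 and 9.90 CPM in male libraries. Every male library lay below the female ones, with a log2 fold change of −1.46 (SE 0.39, adjusted p = 0.186 in edgeR), and E2f2 was lower past the threshold in DESeq2 (adjusted p = 0.0309) and with the GC and length correction (−1.56, SE 0.18, adjusted p = 0.00463 in edgeR). That correction also left Mybl2 lower (adjusted p = 0.0384 in edgeR), where 2.92% of all genes were called lower. Foxm1, named for its role after its values were seen, stood at 85.8, 85.3 and 96.9 CPM in female and 48.3, 55.5 and 64.8 CPM in male libraries, without overlap (log2 fold change −0.67, SE 0.30, adjusted p = 0.594 in edgeR).

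DNA replication genes, which act in the preceding S phase, had a like median: −0.74 over 33 genes, all negative. None passed the threshold in edgeR. DESeq2 called 1, Rrm2, where it called 2.15% of all genes lower. At an unadjusted p under 0.05 edgeR had 8 lower, which is 24.2% against 4.51% of all genes. In 11 every male library lay below every female one, which is 33.3% against 7.27% of all genes. Rrm2, a ribonucleotide reductase subunit, had the smallest p, at 136.0, 119.0 and 115.1 CPM in female and 66.6, 49.2 and 59.7 CPM in male libraries. The male libraries lay well below, with a log2 fold change of −1.08 (SE 0.30, adjusted p = 0.209 in edgeR), and Rrm2 was lower past the threshold in DESeq2 (adjusted p = 0.023). With the GC and length correction 3 of the 33 were lower past the threshold in edgeR, where 2.92% of all genes were called lower. These were Rrm2 (adjusted p = 0.0152 in edgeR), Cdt1 (0.0193) and Uhrf1 (0.0274). The replication and mitosis lists were not tested against each other.

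Some markers of other cells in the sort differed between the sexes as well, and their part in these differences was not tested. Of all genes tested, 7.27% were lower and 6.47% higher in every male library, the shares beside which the counts below stand. Summed CPM of 7 Sertoli cell markers ran from 13.1 to 21.3 in female and from 66.9 to 112.3 in male libraries, with 6 of 7 higher in every male library and Dmrt1 under 1 CPM throughout. Summed CPM of 7 endothelial markers ran from 59.4 to 100.3 and from 146.5 to 330.5, of which Kdr made up most and 1 of the 7 was higher and 1 lower in every male library, and that of 6 neuron and Schwann cell markers from 15.2 to 29.8 and from 67.3 to 76.3, with Stmn2 making up most, 2 of the 6 higher in every male library, and Sox10 under 1 CPM. The sum of 7 fetal ovary support markers ran from 113.5 to 196.7 in female and from 273.5 to 547.2 in male libraries, most of it Wnt4, while 4 of the 7 were lower in every male library. Summed CPM of 9 duct epithelium markers, most of it keratins, ran from 322.8 to 795.5 in female and from 202.5 to 523.8 in male libraries, but 3 of the 9 were lower in every male library and none higher. Of these Epcam, which encodes an epithelial adhesion protein, was lower past the threshold (log2 fold change −2.41, SE 0.37, adjusted p = 0.0381 in edgeR), Emx2 had −1.28 (SE 0.42, adjusted p = 0.321), and Lhx1 was under 1 CPM. Sums of the Leydig, erythroid, leukocyte and germ cell markers overlapped between the sexes, as did each of their markers. Germ cell markers summed to at most 3.95 CPM in any library, with Dazl, Pou5f1, Dppa3 and Mael under 1 CPM, and erythroid markers to at most 25.2 CPM, with Hbb-bh1 under 1 CPM.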

How the data were processed

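Per the labels' protocols, total RNA of at least 100 ng per library was made into TruSeq v2 libraries and read as paired 76-base reads. Each library's deposited file gives raw counts by Ensembl gene identifier, plus 5 summary lines that name no gene and were left out of totals and tests. The submitters' processing notes list TopHat, HTSeq, DESeq and mm9 with no version or role. No annotation release or strand setting is given in the sources used here. Since this kit does not mark strand, reads cannot be told apart for 11 of the 40 genes that overlap an exon of an opposite-strand gene in GRCm38. These are Ccna2, Cdc25c, Plk1, Nek2, Cdca8, Cdc20, Ube2c, Kif4, Nusap1, Kif20a and Prc1. For Plk1 and Nek2 the overlapping gene is not among the identifiers counted. Top2a overlaps a gene on its own strand. Ccnb1, Ccnb2 and Kif4 have named pseudogene copies that could take or share reads. Symbols were found for 32919 of 37991 identifiers, and every listed gene matched 1 identifier. Gene coordinates are not given because the reference build differs from mm9; promoter coordinates are those of RefSeq's GRCm38.p6 windows. In 21 of 33 windows the 30 bases after the start were found in the gene's GENCODE transcripts on the same strand; where a gene had more than 1 window, the one listed first was used.

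From the counts, genes were kept with filterByExpr by sex, scaled by TMM and fitted in edgeR 4.0.16 (R 4.3.3) by the robust quasi-likelihood method, two-sided, with no term but sex. Standard errors were taken as the size of the log2 fold change divided by the root of its F statistic. Log2 CPM for spreads and library differences used a prior count of 2. For the GC and length correction, natural splines (5 degrees of freedom each) were fitted per library to deviations from gene means; 96.4% of tested genes and all 40 members had a value. Alternatives were other scalings and filters, DESeq2 1.42.0, limma-voom (limma 3.58.1), a replicate block, that correction, a threshold of 0.1, and leaving out libraries. The fit was tested on simulated data without the GC and replicate effects seen here, so that test cannot show how the fit behaves with them. Some marker genes of other cell types are not reported here by name. Values in every library were given for 6 genes named by rule (Mki67, Top2a, Ccnb1, Cdk1, Aurkb, Plk1) and for the member with the smallest p and the highest CPM per kb in each of 9 roles; other lists are named by their smallest p. The members, lists and rules were chosen with earlier results of these data known. The labels do not say that the replicates are separate litters, so p-values measure the spread between these libraries.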

Additional observations from a re-analysis of the deposited data

How the results depend on the processing

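Over 20 alternative fits the median log2 fold change of the 40 mitosis genes lay between −1.03 and −0.53, both from leaving out 1 male library (replicates 1 and 2). It was negative in all of them. That of the 107 other mitosis genes lay between −0.92 and −0.18 and that of the DNA replication genes between −0.82 and −0.47, the last without female replicate 2. The number of the 40 called was 0 in the other scalings and filters, DESeq2, limma-voom, the threshold of 0.1 and each fit that left libraries out, in which between 0% and 0.952% of all genes were called lower (DESeq2, 2.15%). It was 2 with the GC and length correction and 15 with the share outside genes as a covariate. Among the 107 other genes 1 and 14 were lower, where 2.92% and 7.3% of all genes were called lower. The causes were not tested. Without female replicate 1, 6 of the 40 turned positive: Mki67 (0.51), Cenpe (0.75), Cenpf (0.50), Ndc80 (0.26), Bub1 (0.015) and Hmmr (0.20). Plk1 and Cdc20 did so without female replicate 2 (0.019 and 0.23) and without male replicate 1 (0.092 and 0.12). Over the fits that left out 1 library, Mki67 ranged from −2.26 to 0.51, Cenpe from −2.24 to 0.75, Cenpf from −2.31 to 0.50, Ndc80 from −1.81 to 0.26, Bub1 from −1.94 to 0.01, Hmmr from −1.65 to 0.20, Plk1 from −0.53 to 0.09 and Cdc20 from −0.60 to 0.23. The CHR count was 11 of 33 promoters (33.3%) when only the bases before the start were searched, against 17.1% of all windows.

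Male and female libraries share replicate numbers, but the labels do not say that these pair them, and they were not taken to. Over all genes, deviations from the sex mean correlated at 0.93 for the replicate 1 libraries and 0.85 for replicate 2, but at −0.07 for replicate 3. Female replicate 3 correlated best with male replicate 1 (0.22). The deviations of replicate 3 are fixed by those of replicates 1 and 2, so these correlations are not independent and cannot decide the pairing. With a replicate block 37 of the 40 and 68 of the 107 were lower, where 14.2% of all genes were called lower. With the block and the GC and length correction 35 of the 40 and 67 of the 107 were lower and 1 of the 107 was higher, where 15.4% of all genes were called lower.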
